A study of Arabidopsis thaliana with 18 samples.

Results

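The Calvin-Benson cycle fixes CO2 in the chloroplast stroma, and photorespiration salvages the carbon lost when Rubisco reacts with oxygen instead. The 34 nuclear genes described here were chosen by locus identifier for these functions, with earlier results of these data known. They comprise 18 genes of the Calvin-Benson cycle and 16 of photorespiration, from the 27628 genes of the authors' deposited table. Ribosome footprints and RNA were sequenced from whole 9-day-old Arabidopsis seedlings of the mutants ceres-1 and ceres-2 and of the wild type Col-0, with 3 libraries per genotype and kind and 18 libraries in all. Both mutants are in the Col-0 background, and all seedlings grew under control conditions and were taken at Zeitgeber time 5, that is 5 h after lights on. CERES, found in plants, interacts with eIF4E, the initiation factor that recognises the mRNA cap, and the question is which mRNAs differ in abundance or in ribosome occupancy once it is disrupted. The sources used here do not describe the molecular lesion of either allele.

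Expression values below are adjusted p-values and log2 fold changes (mutant over Col-0) out of the authors' deposited table, or were computed from these, and sequence values come from RefSeq. That table holds no value per library and no level, so the depth is unknown, no SD can be given, and the seedling label could not be checked against marker genes. A gene is called where the authors' adjusted p is below 0.05. In the authors' deposited table the RNA of CERES (AT4G23840) itself was lower in ceres-1, at -4.43 (adjusted p = 5.62e-08), and in ceres-2, at -2.92 (adjusted p = 6.19e-05). All 34 genes had an adjusted p for RNA, footprints and efficiency in both mutants, so none was lost to a filter on low values.

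In the Calvin-Benson cycle Rubisco joins CO2 to ribulose bisphosphate, the product is reduced to triose phosphate with ATP and NADPH, and most of it is rebuilt into the CO2 acceptor. Rubisco's reaction with oxygen yields phosphoglycolate. It is dephosphorylated in the chloroplast, oxidised and aminated to glycine in the peroxisome, and converted to serine in the mitochondrion with release of CO2 and ammonia. Serine returns through the peroxisome to the chloroplast as glycerate. In green seedlings in the light these enzymes are made in large amounts. Apart from Rubisco's large subunit, which the chloroplast encodes, they are made from nuclear mRNAs and imported into the organelles.

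Several of these enzymes are encoded by gene copies, and reads of near-identical copies can be assigned to either. Coding sequences of the RefSeq annotation of TAIR10.1, taking the longest of each gene, were cut into all windows of 28 bases, a length like that of a footprint. Of the 34 genes, 12 shared no window with any other nuclear gene, 15 shared some but under 10% of their windows, and 7 shared more. The 60 bases below from the middle of the coding sequence show what this means. Most windows are shared for the small subunit genes RBCS1B, RBCS2B and RBCS3B, and a smaller part, over 10%, for the glycolate oxidase genes GOX1 and GOX2. Few are for the glycine decarboxylase P-protein genes GLDP1 and GLDP2 and the dehydrogenase genes GAPA2 and GAPA. Capitals mark bases that differ from the first sequence of each family.
RBCS1B: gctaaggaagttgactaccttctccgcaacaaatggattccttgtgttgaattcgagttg
RBCS2B: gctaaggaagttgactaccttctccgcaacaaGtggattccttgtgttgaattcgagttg
RBCS3B: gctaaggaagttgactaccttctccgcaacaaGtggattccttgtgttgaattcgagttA
GOX1: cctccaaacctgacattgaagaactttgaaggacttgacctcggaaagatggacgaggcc
GOX2: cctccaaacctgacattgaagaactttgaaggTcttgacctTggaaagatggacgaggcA
GLDP1: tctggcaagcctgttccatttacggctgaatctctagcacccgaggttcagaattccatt
GLDP2: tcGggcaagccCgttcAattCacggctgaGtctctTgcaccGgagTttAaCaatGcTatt
GAPA2: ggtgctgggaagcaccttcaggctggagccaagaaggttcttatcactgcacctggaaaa
GAPA: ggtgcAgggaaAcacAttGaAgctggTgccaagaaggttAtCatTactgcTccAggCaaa

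RBCS2B differed from RBCS1B at 1 of these 60 bases and RBCS3B at 2, and GOX2 differed from GOX1 at 3. GLDP2 differed from GLDP1 at 12 of the 60 bases, as did GAPA from GAPA2. Over the whole coding sequence, 71.1% of the windows of RBCS1B, 68.8% of RBCS2B and 57.5% of RBCS3B occurred in another gene, against 14.1% of RBCS1A. GOX1 and GOX2 had 151 windows in common, of 1077 in GOX1 and 1095 in GOX2. The coding sequence of the phosphoglycolate phosphatase gene PGLP1 (AT5G36790) was 100% identical to that of AT5G36700, so the 2 genes cannot be told apart by coding reads. Values of these 7 genes are therefore uncertain as values of single copies. GLDP1 and GLDP2 shared 2.88% and 2.86% of their windows, GAPA 0.172% and GAPA2 0.847%.

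In ceres-2 footprints, 14 of the 34 genes were called lower and none was called higher. RNA was called for none of the 34, but few genes were called in RNA at all, 0.0211% lower and 0.116% higher of 19000 tested. These 14 genes are 41.2% of the 34, beside 1.15% called lower and 0.733% called higher among all 14453 genes tested in ceres-2 footprints, per the authors' deposited table. The 34 were chosen with earlier results of these data known, so these shares are a description and not a test of the set. No levels are given, so the genes set beside the 34 could not be matched to them for level. Calls came to 7 of the 18 Calvin-Benson genes, 38.9%, and 7 of the 16 photorespiration genes, 43.8%. The falls lay, per the authors' deposited table, between -0.78 and -0.29 with a median of -0.42 for the 14 genes. Over all 34 genes the median footprint change in ceres-2 was -0.25 per the authors' deposited table, with 33 genes below 0, beside a median of 5.0e-04 and 49.9% below 0 for all genes tested.

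In ceres-1 none of the 34 genes was called in footprints, beside 0.291% of 9967 genes called lower and 0.351% called higher per the authors' deposited table. The lowest adjusted p among the 34 was 0.242 there, for GAPA. Their footprint changes in ceres-1 ranged from -0.39 to 0.17 per the authors' deposited table, with a median of -0.078 and 24 of 34 below 0, beside a median of 0.0064 and 48.6% below 0 for all genes tested. Below the lower quartile of all genes tested lay 25 of the 34 genes in ceres-2 (quartile -0.15) and 15 in ceres-1 (quartile -0.12), by the authors' deposited table. Above the upper quartile lay 0 genes in ceres-2 and 1 in ceres-1. Both mutants are set against the same Col-0 libraries, so their values are not independent, and whether the alleles differ was not tested because the table holds no such contrast.

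**Figure D1:**
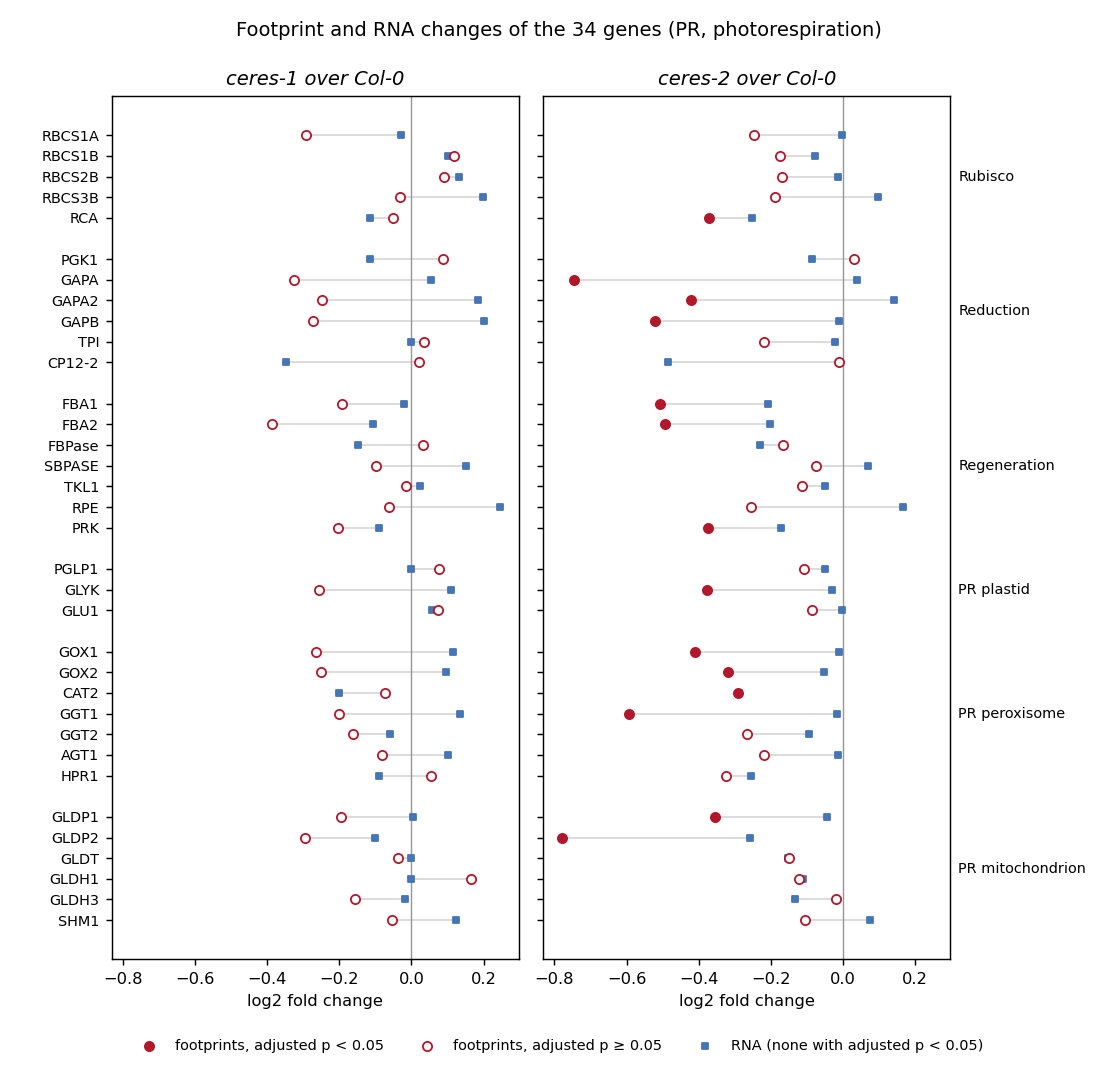
Footprint (circles) and RNA (squares) log2 fold changes of the 34 genes over Col-0 in ceres-1 (left) and ceres-2 (right), grouped by role, by the authors' deposited table; filled circles have an adjusted p below 0.05. The 14 filled circles are all in ceres-2 and lie between -0.78 and -0.29, while no gene is filled in ceres-1.

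**Figure D2:**
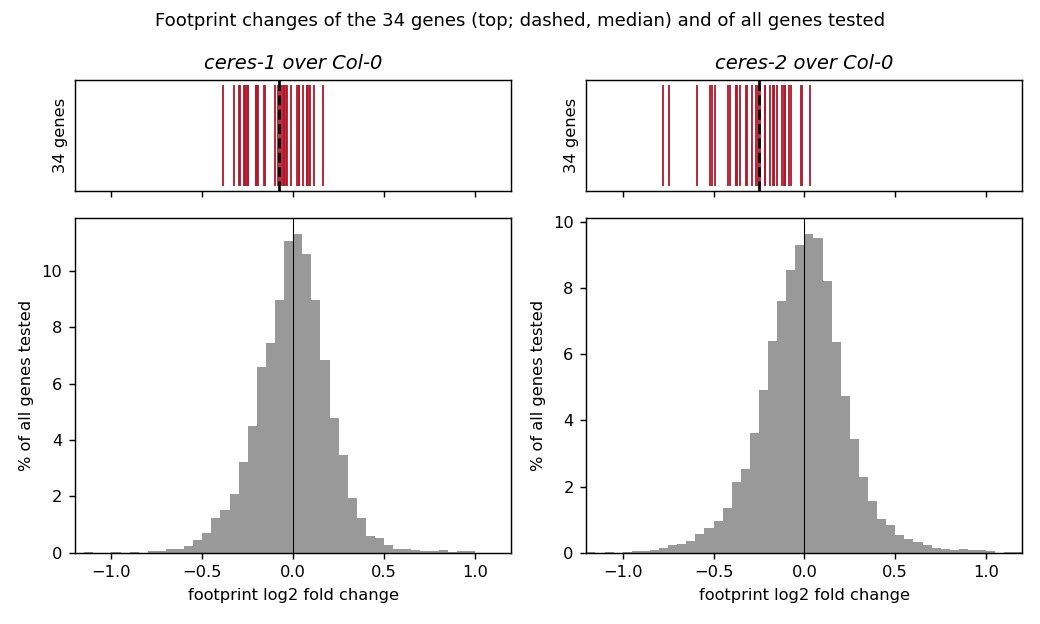
Footprint log2 fold changes over Col-0 of the 34 genes (top, 1 line per gene, median dashed) and of all genes tested (bottom, percent of genes per bin of 0.05; genes beyond the axis are not drawn) in ceres-1 (left) and ceres-2 (right). In ceres-2 the 34 genes run from -0.78 to 0.031, and in ceres-1 from -0.39 to 0.17.

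Of the genes for Rubisco and its activase, which open the cycle, the activase alone was called in ceres-2. RCA (AT2G39730), the ATPase that frees Rubisco's active sites of inhibitory sugar phosphates, had a footprint change of -0.37 in ceres-2 per the authors' deposited table (adjusted p = 0.0172), a level of 77.3% of Col-0, and -0.050 in ceres-1 (adjusted p = 0.960). Its RNA was at -0.25 in ceres-2 and -0.12 in ceres-1 per the authors' deposited table. RBCS1A (AT1G67090), the small subunit gene that shares least with the other copies, was at -0.25 in ceres-2 footprints (adjusted p = 0.0918) and -0.29 in ceres-1 (adjusted p = 0.378) per the authors' deposited table. The clustered copies RBCS1B (AT5G38430), RBCS2B (AT5G38420) and RBCS3B (AT5G38410) lay between -0.19 and -0.17 in ceres-2 and between -0.033 and 0.12 in ceres-1 footprints per the authors' deposited table, none of them called. The large subunit gene RBCL (ATCG00490), which the chloroplast encodes, was at 0.13 in ceres-2 footprints (adjusted p = 0.860) and 0.18 in ceres-1 (adjusted p = 0.816) per the authors' deposited table.

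The largest fall of a Calvin-Benson gene in ceres-2 footprints was in the reduction step, for GAPA. All 3 genes of the chloroplast glyceraldehyde-3-phosphate dehydrogenase, which uses NADPH to make triose phosphate, were called lower in ceres-2. GAPA (AT3G26650), an A subunit, was at -0.75 in ceres-2 footprints per the authors' deposited table (adjusted p = 4.14e-08), 59.7% of Col-0, and at -0.33 in ceres-1. GAPB (AT1G42970), the B subunit whose tail takes part in redox control, was at -0.52 in ceres-2 (adjusted p = 0.00138) and -0.27 in ceres-1 per the authors' deposited table. The second A subunit gene, GAPA2 (AT1G12900), was at -0.42 in ceres-2 (adjusted p = 1.43e-04) and -0.25 in ceres-1 per the authors' deposited table. RNA of the 3 genes lay between -0.012 and 0.14 in ceres-2 and between 0.055 and 0.20 in ceres-1 per the authors' deposited table, so their RNA and footprint values pointed different ways except for GAPB in ceres-2.

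The other genes of this step were not called. PGK1 (AT3G12780), a phosphoglycerate kinase that supplies the dehydrogenase, was the single gene of the 34 above 0 in ceres-2 footprints, at 0.031 per the authors' deposited table, with 0.087 in ceres-1. TPI (AT2G21170), the plastid triose phosphate isomerase, was at -0.22 in ceres-2 footprints per the authors' deposited table (adjusted p = 0.490). CP12-2 (AT3G62410), a small linker protein that holds the dehydrogenase and phosphoribulokinase in an inactive complex in the dark, had the lowest RNA values of the 34 genes, -0.49 in ceres-2 (adjusted p = 0.958) and -0.35 in ceres-1 per the authors' deposited table. Its footprints were at -0.011 in ceres-2 and 0.021 in ceres-1 per the authors' deposited table.

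In the regeneration of ribulose bisphosphate, both aldolase genes among the 34 and the last enzyme were called lower in ceres-2. The enzymes between them were not. A further aldolase gene, outside the 34, was at -0.15 in ceres-2 footprints (adjusted p = 0.806) per the authors' deposited table. FBA1 (AT2G21330) and FBA2 (AT4G38970), aldolases that join triose phosphates, were at -0.51 (adjusted p = 8.55e-04) and -0.49 (adjusted p = 3.05e-06) in ceres-2 footprints per the authors' deposited table, or 70.4% and 71.0% of Col-0. In ceres-1 the authors' deposited table gives -0.19 for FBA1 and -0.39 for FBA2, the lowest footprint value of the 34 genes in that allele (adjusted p = 0.280). PRK (AT1G32060), the phosphoribulokinase that makes the CO2 acceptor, was at -0.37 in ceres-2 (adjusted p = 0.00449) and -0.20 in ceres-1 footprints per the authors' deposited table. RNA of these 3 genes was between -0.21 and -0.17 in ceres-2 per the authors' deposited table.

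The bisphosphatases FBPase (AT3G54050) and SBPASE (AT3G55800), which remove a phosphate in irreversible steps, were at -0.17 and -0.074 in ceres-2 footprints per the authors' deposited table (adjusted p = 0.706 and 0.922). TKL1 (AT3G60750), the transketolase, was at -0.11 and RPE (AT5G61410), the pentose phosphate epimerase, at -0.25 in ceres-2 footprints per the authors' deposited table (adjusted p = 0.814 and 0.212). RPE had the highest RNA values of the 34 genes, 0.17 in ceres-2 and 0.25 in ceres-1 per the authors' deposited table.

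Of the photorespiration enzymes in the chloroplast, the one that closes the pathway was called. GLYK (AT1G80380), the kinase that returns glycerate to the Calvin-Benson cycle, was at -0.38 in ceres-2 footprints (adjusted p = 0.00594) and -0.26 in ceres-1 per the authors' deposited table. PGLP1, the phosphatase that opens the pathway, was at -0.11 in ceres-2 and 0.076 in ceres-1 footprints per the authors' deposited table. Its identical copy AT5G36700 was at -0.12 and 0.046 per the authors' deposited table. GLU1 (AT5G04140) encodes the ferredoxin-dependent glutamate synthase, which takes part in ammonia reassimilation. Its footprints were at -0.086 in ceres-2 and 0.074 in ceres-1 per the authors' deposited table.

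Peroxisomal enzymes held 4 of the 7 photorespiration calls, from 7 genes. GOX1 (AT3G14420) and GOX2 (AT3G14415), neighbouring genes of glycolate oxidase, were at -0.41 (adjusted p = 1.26e-04) and -0.32 (adjusted p = 0.0189) in ceres-2 footprints per the authors' deposited table, and at -0.27 and -0.25 in ceres-1. CAT2 (AT4G35090), the catalase that removes the hydrogen peroxide made by glycolate oxidase, was at -0.29 in ceres-2 (adjusted p = 0.0345), the smallest fall among all 166 genes called lower per the authors' deposited table. Its RNA was also at -0.29 in ceres-2 per the authors' deposited table. GGT1 (AT1G23310), the main glutamate:glyoxylate aminotransferase of leaves, was at -0.59 in ceres-2 footprints per the authors' deposited table (adjusted p = 3.96e-05), 66.3% of Col-0, and at -0.20 in ceres-1.

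The remaining 3 peroxisomal genes lay below 0 in ceres-2 without a call. HPR1 (AT1G68010), which reduces hydroxypyruvate to glycerate, was at -0.32 per the authors' deposited table (adjusted p = 0.0675), a change larger than that of CAT2, and its RNA was at -0.25. The second aminotransferase gene GGT2 (AT1G70580) was at -0.27 and the serine:glyoxylate aminotransferase gene AGT1 (AT2G13360) at -0.22 in ceres-2 footprints per the authors' deposited table (adjusted p = 0.485 and 0.311). At the threshold, CAT2 was just inside, and HPR1 and RBCS1A were just outside. A threshold of 0.01 called 11 of the 34 genes lower in ceres-2 footprints, beside 0.664% of all genes tested, and one of 0.1 called 16, beside 1.5%, per the authors' deposited table.

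In the mitochondrion the calls were both genes of 1 subunit. Glycine decarboxylase is a complex of P, T, H and L proteins, of which the P-protein releases the CO2. GLDP2 (AT2G26080) had the largest footprint fall of the 34 genes, -0.78 in ceres-2 per the authors' deposited table (adjusted p = 1.67e-07), 58.2% of Col-0, and -0.30 in ceres-1 (adjusted p = 0.338). GLDP1 (AT4G33010) was at -0.35 in ceres-2 (adjusted p = 0.00402) and -0.20 in ceres-1 per the authors' deposited table. RNA in ceres-2 was at -0.26 for GLDP2 and -0.044 for GLDP1 per the authors' deposited table.

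The partner subunits were not called. The T-protein gene GLDT (AT1G11860) and the H-protein genes GLDH1 (AT2G35370) and GLDH3 (AT1G32470) were at -0.15, -0.12 and -0.019 in ceres-2 footprints per the authors' deposited table (adjusted p = 0.732, 0.884 and 0.981). SHM1 (AT4G37930), the serine hydroxymethyltransferase that works with the complex, was at -0.11 per the authors' deposited table (adjusted p = 0.830). GLDH1 had the highest ceres-1 footprint value of the 34 genes, 0.17 per the authors' deposited table.

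**Figure D3:**
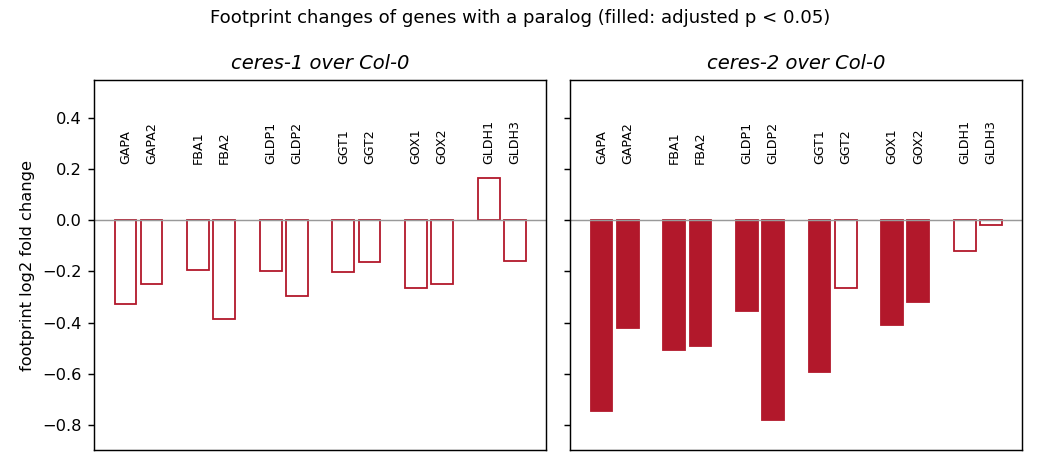
Footprint log2 fold changes over Col-0 of 6 pairs of related genes in ceres-1 (left) and ceres-2 (right), by the authors' deposited table; filled bars have an adjusted p below 0.05. In ceres-2 both genes are called in 4 pairs, GGT1 but not GGT2 in another, and neither GLDH gene in the last.

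Gene copies were set side by side, without a test between them, since the table has no standard errors. GAPA and GAPA2, with coding sequences 85.8% identical, were at -0.75 and -0.42 in ceres-2 footprints per the authors' deposited table. GLDP2 and GLDP1 (85.6% identical) were at -0.78 and -0.35, and GGT1 and GGT2 (86.9% identical) at -0.59 and -0.27, per the authors' deposited table. FBA1 and FBA2 (84.1% identical) were close to each other in ceres-2, at -0.51 and -0.49 per the authors' deposited table.

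RNA was called for none of the 34 genes in either mutant, beside 0.0211% of 19000 genes called lower and 0.116% higher in ceres-2 and 0.0124% of 24142 called in each direction in ceres-1 per the authors' deposited table. DESeq2 is the one test the submitters' processing notes name, and unadjusted values are not in the table, so no count at an unadjusted threshold stands beside these zeros. RNA changes ranged from -0.49 to 0.17 in ceres-2, with a median of -0.050 (-0.086 without the 7 genes with near-identical copies) and 28 of 34 below 0, per the authors' deposited table. In ceres-1 they ranged from -0.35 to 0.25, with a median of 0.0012 (-0.0014 without the 7 genes and 0.0053 centred on all genes) and 17 below 0, per the authors' deposited table. For all genes tested the medians were -0.0048 in ceres-2 and -0.0041 in ceres-1, with 50.9% and 50.7% below 0. In whole seedlings, fewer cells of a type and less RNA per cell cannot be told apart.

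Of the 14 genes with a footprint call, 2 had an RNA fall of at least 50% of the footprint fall on the log2 scale per the authors' deposited table, namely RCA and CAT2. RNA changes of the 14 in ceres-2 ranged from -0.29 to 0.14 with a median of -0.049 per the authors' deposited table. For the 20 genes without a footprint call the RNA median was -0.050 per the authors' deposited table, and the footprint median -0.16.

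**Figure D4:**
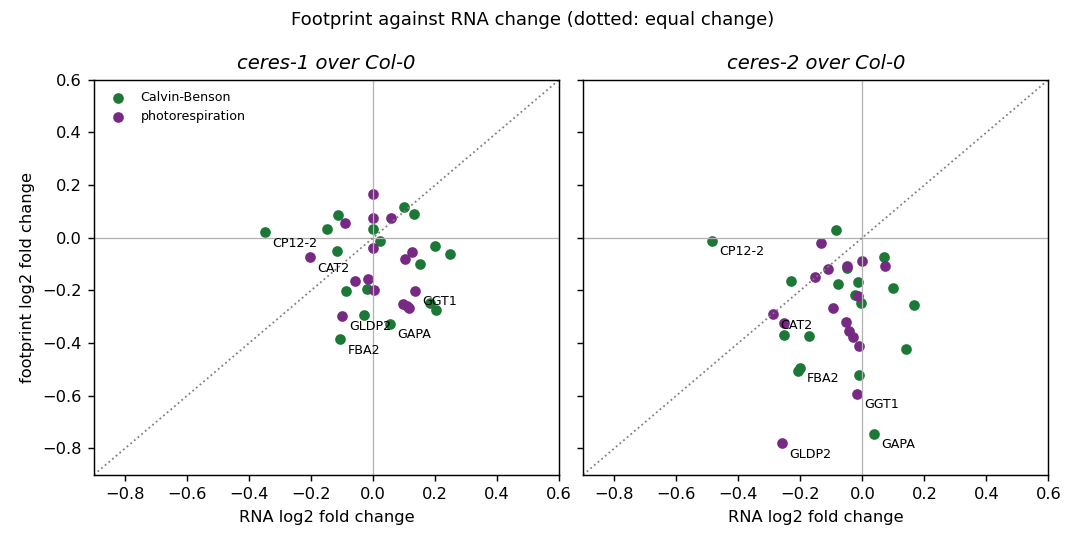
Footprint against RNA log2 fold change over Col-0 for the 34 genes in ceres-1 (left) and ceres-2 (right), by the authors' deposited table; the dotted line marks equal changes. In ceres-2, 29 of 34 genes lie below the dotted line, and in ceres-1, 23.

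Translational efficiency, footprints relative to RNA, was called for none of the 34 genes in either mutant, beside 0.041% lower and 0% higher of 12188 genes in ceres-2 and 0.0413% lower and 0.066% higher of 12120 in ceres-1 per the authors' deposited table. The lowest efficiency adjusted p was 0.120 for GAPA in ceres-2 and 0.250 for GAPA2 in ceres-1 per the authors' deposited table. The size of an efficiency change is taken as the difference, footprint minus RNA, of the log2 fold changes, because the deposited efficiency fold changes of the 34 genes differ from the footprint ones by at most 0.0252. This difference, computed from 2 columns of the authors' deposited table, had a median of -0.19 in ceres-2 (-0.26 in the deposited efficiency column), with 29 of 34 genes below 0, beside -0.0097 and 51.6% for all genes tested. In ceres-1 its median, computed likewise from the authors' deposited table, was -0.16 (-0.091 in the deposited efficiency column), with 23 of 34 below 0, beside a median of 1.0e-04 and 6057 of 12120 below 0 for all genes tested.

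The dehydrogenase genes and GGT1 and GLDP2 had the 5 lowest differences in ceres-2. As footprint minus RNA, computed from the authors' deposited table, GAPA was at -0.78 in ceres-2 and -0.38 in ceres-1, GAPA2 at -0.56 and -0.43, and GAPB at -0.51 and -0.47. Computed likewise from the authors' deposited table, GGT1 was at -0.58 in ceres-2 and -0.34 in ceres-1, and GLDP2 at -0.52 and -0.20. At the other end CP12-2 was at 0.47 in ceres-2 and 0.37 in ceres-1 as footprint minus RNA, computed from the authors' deposited table, while its deposited efficiency fold changes there were -0.029 and -0.0017. For CAT2 the difference in ceres-2, computed from the authors' deposited table, was -0.0026.

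The called genes had coding sequences of 1104 to 3135 bases (median 1335), against 396 to 4947 (median 1126.5) for the 20 genes not called. Of genes with a reference coding sequence, the median was 1215 bases for all tested in ceres-2 footprints and 1428 for those called lower. GC content of the coding sequence was 47.3% in the called genes and 47.5% in the 20 others (medians). It was 44.6% for all genes tested in ceres-2 footprints that have a coding sequence in the reference, and 45.8% for those called lower. Most falls of the called genes were smaller than is typical of called genes. Of the 14, 11 fell by less than the median of all 166 genes called lower, which was -0.53 per the authors' deposited table, and 3 (GAPA, GLDP2 and GGT1) changed by 1.5-fold or more, 8.82% of the 34 genes beside 0.401% of all genes tested.

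Other genes of the same pathways were mostly not called. A list of 48 further genes held Calvin-Benson and photorespiration isoforms and transporters, Rubisco assembly factors with RBCL, and thioredoxin control. The list was also chosen with earlier results of these data known. Of the 47 with an adjusted p in ceres-2 footprints, 2 were called lower and 0 higher, 4.26% beside 1.15% and 0.733% of all genes, per the authors' deposited table. CP12-1 (AT2G47400), a second linker protein of the dehydrogenase, was at -0.40 in ceres-2 footprints (adjusted p = 0.0190) and at -0.62 in RNA (adjusted p = 0.460) per the authors' deposited table. DIT1 (AT5G12860), the 2-oxoglutarate/malate transporter that feeds ammonia reassimilation in the chloroplast, was at -0.38 in ceres-2 (adjusted p = 0.0189) and -0.39 in ceres-1 footprints (adjusted p = 0.181) per the authors' deposited table. The median footprint change of the 48 genes was 0.011 in ceres-2 and 0.032 in ceres-1 per the authors' deposited table. None of the 48 was called in RNA or efficiency in either mutant, or in ceres-1 footprints, where 45 had an adjusted p. Calls were rare there among all genes tested too. They were at most 0.116% in RNA and 0.066% in efficiency per direction, and 0.291% lower and 0.351% higher in ceres-1 footprints.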

How the data were processed

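A mammalian ribosome profiling kit was used, per the labels' protocols. The submitters' processing notes name TopHat2 2.1.0, an aligner, featureCounts 1.6.2, a read counter, and DESeq2, a test for counts. Neither the build nor the strand setting nor the handling of multiply matching reads is given in the sources used here. Per the file headers, the authors' deposited table has 12 value columns, in pairs of log2 fold change over Col-0 and adjusted p-value, for each mutant and for RNA, footprints and efficiency. Samples were grouped by their titles, and libraries not labelled as footprints were taken as RNA. Nothing says that the 3 libraries of a group came from separate cultures, so the p-values may measure technical spread only.

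The authors' adjusted p-values were used with a threshold of 0.05. They are given for part of the genes, from 9967 in ceres-1 footprints to 24142 in ceres-1 RNA. Counts and medians were computed in Python 3.11.15 with pandas 2.3.3 and tested on simulated data. Coding sequences came from RefSeq, assembly TAIR10.1, where all 34 loci were found, and were aligned with Biopython 1.88. No coordinates are given, since the authors' build is unknown. All 34 genes could be named, and of 48 further pathway genes those called, the copy of PGLP1 and RBCL. The genes and lists were chosen with earlier results of these data known. Alternatives were thresholds of 0.01 and 0.1, a change of at least 1.5-fold, leaving out 7 genes with near-identical copies, centring, members with an adjusted p, and the deposited efficiency column.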

Additional observations from a re-analysis of the deposited data

How the results depend on the processing

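No paired analysis was possible because single libraries have no values in the table, and leaving out replicates was not run for the same reason. The 14 footprint calls in ceres-2 came to 11 at an adjusted p below 0.01, 16 at 0.1, 12 without the 7 genes with near-identical copies, and 3 at a change of at least 1.5-fold (GAPA, GLDP2 and GGT1), beside 0.401% of all genes. At 0.01 the calls of RCA, GOX2 and CAT2 were lost, and at 0.1 RBCS1A and HPR1 were added. The 2 calls among other pathway genes came to 0 at 0.01, beside 0.664% of all genes, and to 0 at 1.5-fold, beside 0.401%. Counts of 0 in ceres-1 footprints, RNA and efficiency were 0 under each of these settings. At 0.05 at most 0.351% of all genes were called there in either direction.

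Medians over the 34 genes kept their sign in footprints and efficiency. Without near-identical copies they were -0.27 in ceres-2 footprints, -0.14 and -0.18 in efficiency of ceres-1 and ceres-2, -0.086 in ceres-2 RNA and -0.0014 in ceres-1 RNA, where the sign turned from 0.0012. Centred on all genes, RNA medians were 0.0053 in ceres-1 and -0.043 in ceres-2. With the deposited efficiency column the efficiency medians were -0.091 in ceres-1 and -0.26 in ceres-2. The depth behind each gene is unknown, since the table used here has fold changes and no levels.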
